A study of Mus musculus with 18 samples.

Results

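The troponin genes encode the calcium switch of striated muscle, and all 8 genes of the mouse family were followed here in hindlimb muscle RNA from young to very old mice. They were taken by gene symbol: Tnni1, Tnni2 and Tnni3 for the inhibitory subunit troponin I, Tnnt1, Tnnt2 and Tnnt3 for the tropomyosin-binding subunit troponin T, and Tnnc1 and Tnnc2 for the calcium-binding subunit troponin C. All 8 members were among the 23420 genes of the RNA-seq table. RNA had been sequenced from the muscle of 3 female C57BL/6J mice aged 2 months, 3 aged 20 months and 3 aged 28 months, 1 library per mouse, with no treatment and no altered gene in any group. The muscle had been powdered before extraction, and the labels name the hind limb but no single muscle, so the mix of muscles in each powder is not known. DNA of the same 3 mice per age had been pooled for the capture of methylated DNA (MBD-seq), and spleen T cells of those mice gave 1 further pool per age.

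In a resting fibre, troponin holds tropomyosin over the sites on actin where myosin binds. When calcium binds to troponin C, troponin I lets go of actin and tropomyosin moves aside. Slow, fatigue-resistant fibres use Tnni1, Tnnt1 and Tnnc1, and fast fibres use Tnni2, Tnnt3 and Tnnc2. The heart uses Tnni3 and Tnnt2 together with Tnnc1. Developing skeletal muscle also makes Tnnt2. In whole muscle, the ratio of slow to fast troponin therefore reads out the fibre types in the sample, although fewer fibres of a type and less RNA per fibre cannot be told apart in bulk RNA.

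The genes lie at 5 places in the genome (GRCm38, the assembly that mm10 names), and each troponin I gene lies beside a troponin T gene. Slow Tnni1 (chromosome 1, 135799421 to 135810989, plus strand) and cardiac Tnnt2 (135836334 to 135852268, plus strand) are 25.3 kb apart, with Lad1 between them. Cardiac Tnni3 (chromosome 7, 4518305 to 4522528, minus strand) and slow Tnnt1 (4504570 to 4515975, minus strand) are 2.3 kb apart with no coding gene between them. Fast Tnni2 (chromosome 7, 142441816 to 142444410, plus strand) and fast Tnnt3 (142498836 to 142516009, plus strand) are 54.4 kb apart, with Lsp1 between them. Tnnc1 (chromosome 14, 31208312 to 31211729, plus strand) and Tnnc2 (chromosome 2, 164777161 to 164779734, minus strand) stand alone. Of these 3 neighbouring pairs, only the last serves a single fibre type. Tnnt3 overlaps a noncoding RNA gene, Prr33, on the other strand. The library kit did not mark strand, so reads of Tnnt3 and Prr33 cannot be told apart.

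The promoters of the 3 slow genes are shown because their RNA moved together with age, and that of Tnnc2 because it was the fast member called lower with age and its DNA was well captured in muscle. The sequences are from RefSeq (GRCm38.p6) and run 5′ to 3′ from 250 bases before to 50 bases after the gene's start. RefSeq promoters were matched for 6 of the 8 genes, not for Tnni2 and Tnnt3. Capitals mark CpG, the dinucleotide whose methylated form the capture protein binds.
Tnni1, chr1:135799171-135799470, plus strand: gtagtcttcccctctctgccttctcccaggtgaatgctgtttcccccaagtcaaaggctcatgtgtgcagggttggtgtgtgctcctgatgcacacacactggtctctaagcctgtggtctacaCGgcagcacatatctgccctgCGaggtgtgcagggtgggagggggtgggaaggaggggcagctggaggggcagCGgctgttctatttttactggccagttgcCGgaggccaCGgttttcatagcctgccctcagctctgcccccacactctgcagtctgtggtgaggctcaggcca
Tnnt1, chr7:4515926-4516225, minus strand: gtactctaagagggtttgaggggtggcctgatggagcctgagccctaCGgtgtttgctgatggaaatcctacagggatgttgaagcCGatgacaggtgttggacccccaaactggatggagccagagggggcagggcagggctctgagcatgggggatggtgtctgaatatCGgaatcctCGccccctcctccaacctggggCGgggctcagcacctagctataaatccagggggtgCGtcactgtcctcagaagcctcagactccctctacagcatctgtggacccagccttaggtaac
Tnnc1, chr14:31208062-31208361, plus strand: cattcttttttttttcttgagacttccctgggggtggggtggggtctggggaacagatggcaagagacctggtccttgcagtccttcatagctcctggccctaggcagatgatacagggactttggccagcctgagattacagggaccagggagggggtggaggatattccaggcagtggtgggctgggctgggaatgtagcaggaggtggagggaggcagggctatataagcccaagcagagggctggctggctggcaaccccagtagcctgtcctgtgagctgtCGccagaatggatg
Tnnc2, chr2:164779685-164779984, minus strand: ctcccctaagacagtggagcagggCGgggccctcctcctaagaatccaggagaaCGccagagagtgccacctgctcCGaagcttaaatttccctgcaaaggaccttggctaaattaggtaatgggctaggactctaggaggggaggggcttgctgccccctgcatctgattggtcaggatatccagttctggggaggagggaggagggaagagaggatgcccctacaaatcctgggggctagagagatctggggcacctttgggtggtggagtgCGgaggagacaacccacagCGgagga
The windows held 5 CpGs (Tnni1), 6 (Tnnt1), 1 (Tnnc1) and 5 (Tnnc2), against a median of 7 over 32851 RefSeq mouse promoters of the same length. At least 1 CpG was found in 94.6% of those promoters. Both strands were searched for motifs of muscle genes. The E-box CANNTG, the core site of MyoD-family factors, occurred 4 times at Tnni1 and 2 times at each of Tnnt1, Tnnc1 and Tnnc2, and in 72.3% of all promoters. The M-CAT core CATTCC, bound by TEAD factors, occurred once at Tnnc1 and at none of the other 3, and in 14.7% of all promoters. TATAAA occurred once at Tnnt1 and in 13.6% of all promoters. Neither the MEF2 site nor the CArG box occurred in these 4 windows, which says only that those letters are not there. They were found in 3.19% and 1.63% of all promoters, in that order.

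The 9 libraries held 20203833 to 71115244 reads on genes. Values are counts per gene divided by 1 size factor per library, here called normalized counts. Fibre genes dominated every library, and all 6 skeletal fibre markers (Ckm, Acta1, Des, Ttn, Myh4 and Myh1) were present in each. In 2-month libraries 1 and 2 some genes stood apart from the other libraries of that age. In 2-month library 1, 6 neutrophil and marrow genes summed to 4826 normalized counts against 14.9 to 74.2 in the other 8 libraries. Its 4 red blood cell genes summed to 1596 against 110 to 406, and its 6 adipocyte genes to 4741. Adipocyte markers were not confined to that library: they summed to 1656 and 2604 in 2-month libraries 2 and 3, 528 to 803 at 20 months and 670 to 1717 at 28 months. Schwann cell markers (5658 to 7292 against 3655 to 5201) and macrophage markers (2712 to 4098 against 2423 to 2505) were also higher in every 2-month than in every 20-month library, and both overlapped the 28-month libraries (4685 to 6944 and 2678 to 3614). The fibroblast and tendon markers were higher at 2 months in every library, with sums of 36062 to 68293 against 18504 to 24583 at the later ages, while endothelial markers overlapped between ages (11352 to 15213 against 11696 to 13884). In 2-month library 2, slow-fibre genes were well above the levels of the other 2-month libraries, as given below. Its neutrophil and marrow genes (45.8) and red blood cell genes (169) were within the range of the other libraries. Library 2 was thus picked by the slow-fibre genes compared here, and leaving it out selects on the outcome. Calls in fits without it are therefore not support for a rise of slow genes. The part of these features in the results was not tested, and values without 2-month libraries 1 and 2 are given with the results.

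**Figure D1:**
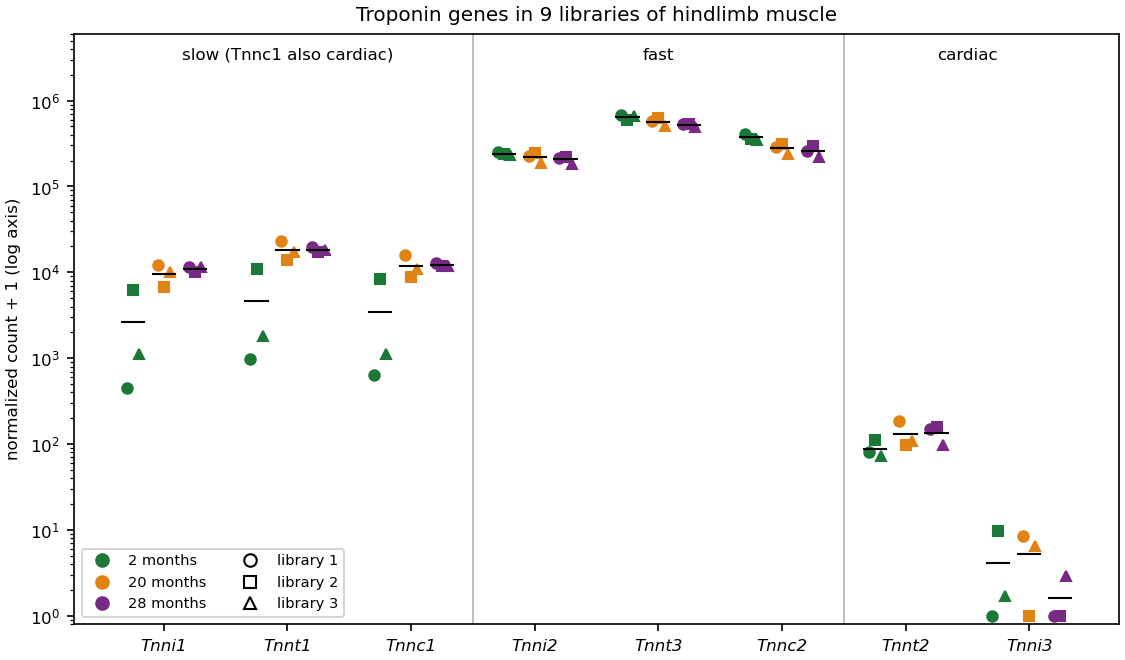
Normalized count plus 1 (log axis) of the 8 troponin genes in each library. Colours are ages, symbols are library numbers and black lines are means of 3 libraries. The slow genes of 2-month libraries 1 and 3 lie far below the other 7 libraries, while the fast genes stay within a 1.85-fold range and Tnni3 is at or near 0.

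Per kilobase of the longest RefSeq transcript, which allows levels of different genes to be compared, fast troponin T led. Over the 9 libraries Tnnt3 averaged 533817 normalized counts per kb, followed by Tnnc2 with 438149 and Tnni2 with 307013. The slow genes averaged 13271 (Tnnt1), 12733 (Tnnc1) and 7153 (Tnni1), cardiac Tnnt2 95.05 and cardiac Tnni3 2.97. Tnnt3 exceeded Tnnc2 in all 9 libraries by 1.06 to 1.41 times per kb, and Tnnc2 exceeded Tnni2 by 1.27 to 1.69 times. Tnnc1 exceeded Tnni1 by 1.51 to 2.13 times. The ratio of Tnnt1 to Tnnc1 ran from 0.916 to 1.13, so these neighbours in the order did not differ beyond their spread. By the mean normalized count without length, Tnnt3 ranked 8th, Tnnc2 13th and Tnni2 21st of all genes, whereas the highest slow gene, Tnnt1, ranked 283rd. Together the 8 genes took 1.99 to 3.13% of all normalized counts.

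Slow troponins were called higher at 20 and at 28 months than at 2 months, by 6.29- to 7.45-fold in the limma fit, and no change between 20 and 28 months passed the test. Slow troponin I, Tnni1, had normalized counts of 455, 6280 and 1128 in 2-month libraries 1, 2 and 3. They were 12215, 6752 and 10012 at 20 months and 11414, 10216 and 11441 at 28 months. Every library of the 6 older mice was above every young library, but 2-month library 2 and 20-month library 2 nearly met, at a ratio of 1.08. Slow troponin T, Tnnt1, had 970, 11068 and 1832 normalized counts at 2 months. The 20-month libraries had 23039, 13809 and 17326, and the 28-month libraries 19619, 17378 and 17985. Again no older library fell among the young ones, and the nearest older and young libraries differed by 1.25 times. Troponin C of slow fibres and heart, Tnnc1, had 642, 8455 and 1133 normalized counts at 2 months. It reached 15836, 8911 and 10872 at 20 months and 12911, 11939 and 11926 at 28 months, with a gap of 1.05 times between the nearest libraries. At 28 months the 3 mice were alike, with coefficients of variation of 6.35% for Tnni1, 6.33% for Tnnt1 and 4.61% for Tnnc1, against 122, 121 and 128% at 2 months.

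The change was tested with limma on log2 of the normalized count plus 1, over the 13178 genes that averaged 10 or more normalized counts (7 of the 8 members; Tnni3 lay below). A gene was called at a Benjamini-Hochberg adjusted p under 0.05. At 20 against 2 months the log2 change was 2.67 (SE 0.643, adjusted p = 0.0146) for Tnni1, or 6.35-fold. It was 2.71 (SE 0.607, adjusted p = 0.0101) for Tnnt1 and 2.65 (SE 0.651, adjusted p = 0.0160) for Tnnc1. These 3 members were called higher and none lower, where 9.42% of all genes tested were called higher and 7.13% lower. The median log2 change was 0.53 over the 7 members and -0.017 over all genes. At 28 against 2 months the log2 change was 2.90 (adjusted p = 0.0108) for Tnni1, 2.76 (adjusted p = 0.0103) for Tnnt1 and 2.74 (adjusted p = 0.0152) for Tnnc1. In that comparison 3 members were called higher and 1, Tnnc2, lower, where 7.53% of all genes were higher and 6.24% lower. With both older ages set against 2 months, 3 members were called higher and 1 lower, where 11.2% of all genes were higher and 8.92% lower. Adjusted p then was 0.00427 for Tnni1, 0.00337 for Tnnt1 and 0.00552 for Tnnc1. The comparisons share the 2-month libraries and are not independent of each other. They also share 1 spread over all ages, and the slow genes varied far more at 2 months than at 28 months. Their SE and adjusted p against 2 months are therefore likely too small. With a spread per group, the log2 ratio of Tnni1 to Tnni2 had an SE of 1.18 at 20 against 2 months.

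The size of the rise depended on 2-month libraries 1 and 2. Library 2 exceeded the mean of the other 2-month libraries 7.94-fold for Tnni1, 7.90-fold for Tnnt1 and 9.52-fold for Tnnc1, while its fast troponins were at 0.900 to 0.973 of that mean. Without library 2, the log2 change of both older ages against 2 months was 3.83 for Tnni1, 3.75 for Tnnt1 and 3.80 for Tnnc1. Without library 1, it was 1.93, 2.00 and 1.94. With both left out, so that 1 young library was assumed to vary like the older groups, it was 3.17, 3.29 and 3.39. For both older ages against 2 months, the 3 slow members were called without library 1 and without library 2. Library 2 was set apart by the slow genes themselves, so the fits without it are not support for the rise. The count models gave smaller changes. At 20 against 2 months the log2 change was 1.89 (Tnni1), 1.98 (Tnnt1) and 1.81 (Tnnc1) by edgeR, and at 28 against 2 months 2.08, 2.00 and 1.86, with DESeq2 within 0.01 of each. With both older ages together, Tnnc1 was not called by edgeR (adjusted p = 0.0534) or DESeq2 (adjusted p = 0.0696), whereas Tnni1 and Tnnt1 were called by both tools. With no filter on low values no troponin was called against 2 months, with adjusted p from 0.0850 to 0.180 for the slow genes. At 20 against 2 months DESeq2 on the recovered reads called none of the slow genes (adjusted p from 0.0758 to 0.141) while edgeR called Tnnt1 among them (adjusted p = 0.0499). Both tools called Tnnc2 lower there (adjusted p = 0.0477 by edgeR and 0.00881 by DESeq2). At 28 against 2 months neither tool called a slow gene (adjusted p from 0.0509 to 0.149). Without 20-month library 1 only Tnnt1 was called at 20 against 2 months, and without 2-month library 1 the call of Tnnc1 was lost in both single-age comparisons (adjusted p = 0.0587 and 0.0574). Tnnc1 was also lost at 20 against 2 months without 2-month library 3 (adjusted p = 0.0512) and at 28 against 2 months without 28-month library 1 (adjusted p = 0.0547) or 2 (adjusted p = 0.0530). In the libraries numbered 3 the normalized counts summed lower at every age. With a term for them, 4 members were called at both 20 and 28 against 2 months.

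From 20 to 28 months no troponin gene was called, where 0.212% of all genes were higher and 0.167% lower. At an unadjusted p under 0.05 there was also no member, and edgeR and DESeq2 called none. The fit takes 1 spread from all ages, so its error here (SE 0.643 for Tnni1) includes the wide young group. With the 20- and 28-month libraries alone, the log2 change of 28 against 20 months was 0.23 (SE 0.172) for Tnni1, 0.05 (SE 0.152) for Tnnt1 and 0.09 (SE 0.166) for Tnnc1. Library 2 at 20 months was the lowest older library for each slow gene, and without it the differences were -0.01, -0.13 and -0.10.

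The fast troponins were far more abundant and changed little. Fast troponin I, Tnni2, had 252989, 236116 and 232589 normalized counts at 2 months. It had 224305, 245495 and 189950 at 20 months and 215425, 222225 and 181400 at 28 months. All but 1 of the 6 older libraries were below the lowest young library. The log2 change of both older ages against 2 months was -0.18 (SE 0.121, adjusted p = 0.317). Fast troponin T, Tnnt3, had 676807, 598911 and 654116 normalized counts at 2 months. At 20 months it had 576506, 624540 and 505997, and at 28 months 531515, 533658 and 486652. Its log2 change was -0.25 (SE 0.143, adjusted p = 0.248), again with 5 of 6 older libraries below all young ones. DESeq2 on the recovered reads called Tnnt3 lower in that comparison (adjusted p = 0.0189), the only tool that did. Fast troponin C, Tnnc2, moved most of the fast genes. It had 410311, 359926 and 347447 normalized counts at 2 months against 285290, 311905 and 236119 at 20 months and 261025, 298919 and 221791 at 28 months. All 6 older libraries were below the young ones. Its log2 change was -0.43 at 20 against 2 months (adjusted p = 0.0883), -0.52 at 28 against 2 months (adjusted p = 0.0492) and -0.48 for both older ages (adjusted p = 0.0308). The call for both older ages was lost in 6 of 9 fits without 1 library: 2-month library 1 (adjusted p = 0.136) or 3 (0.0528), 20-month library 1 (0.0593) or 3 (0.0507) and 28-month library 1 (0.0582) or 3 (0.0714). It was also lost with no filter on low values (adjusted p = 0.792) and after scaling all libraries to 1 sum (adjusted p = 0.220). In these fits, and with 2-month libraries 1 and 2 both out, the log2 change lay between -0.52 (without 2-month library 3) and -0.38 (both out). With both out, Tnni2 had a log2 change of -0.13 and Tnnt3 of -0.27. At 28 against 2 months 13 of 21 alternatives lost the call.

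The cardiac members were scarce. Cardiac troponin T, Tnnt2, which regenerating and developing fibres also make, had 80.2, 111 and 70.7 normalized counts at 2 months. It had 183, 97.9 and 108 at 20 months and 148, 159 and 96.3 at 28 months. The older and young groups overlapped, and the log2 change of 0.57 (SE 0.248) did not pass (adjusted p = 0.127). Leaving out 2-month libraries 1 and 2 together gave 0.85, which did not pass either. It made up 0.0108 to 0.0305% of the normalized counts of the 3 troponin T genes. Cardiac troponin I, Tnni3, had 0 reads in 4 libraries and 1 to 10 in the other 5, and was not tested. Its normalized counts were 0, 8.81 and 0.722 at 2 months, 7.47, 0 and 5.45 at 20 months and 0, 0 and 1.89 at 28 months. A count of 0 allowed up to 6.69, 5.06, 5.69 and 4.14 normalized counts in the 4 libraries concerned (3 reads, for counting error only). Tnni3 is the partner of Tnnc1 in the heart, and its highest level, 8.81, stood against 642 or more for Tnnc1.

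The fold change of each subunit was also read within each library, as log2 of the slow over the fast gene, so that the library's own scaling cancels. For troponin I, Tnni1 over Tnni2 stood at -9.12, -5.23 and -7.69 in the 3 young libraries. It was -4.20, -5.18 and -4.25 at 20 months and -4.24, -4.44 and -3.99 at 28 months. In plain terms, 1 slow count went with 556, 37.6 and 206 fast counts at 2 months and with 15.9 to 36.4 at the later ages. For troponin T, Tnnt1 over Tnnt3 was -9.45, -5.76 and -8.48 at 2 months. The older libraries had -4.65, -5.50 and -4.87 at 20 months and -4.76, -4.94 and -4.76 at 28 months. For troponin C, Tnnc1 over Tnnc2 was -9.32, -5.41 and -8.26 at 2 months, then -4.17, -5.13 and -4.44 at 20 months and -4.34, -4.65 and -4.22 at 28 months. All 6 older libraries lay above all 3 young ones for each subunit, by a margin over 2-month library 2 of only 0.05 (I), 0.26 (T) and 0.28 (C).

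**Figure D2:**
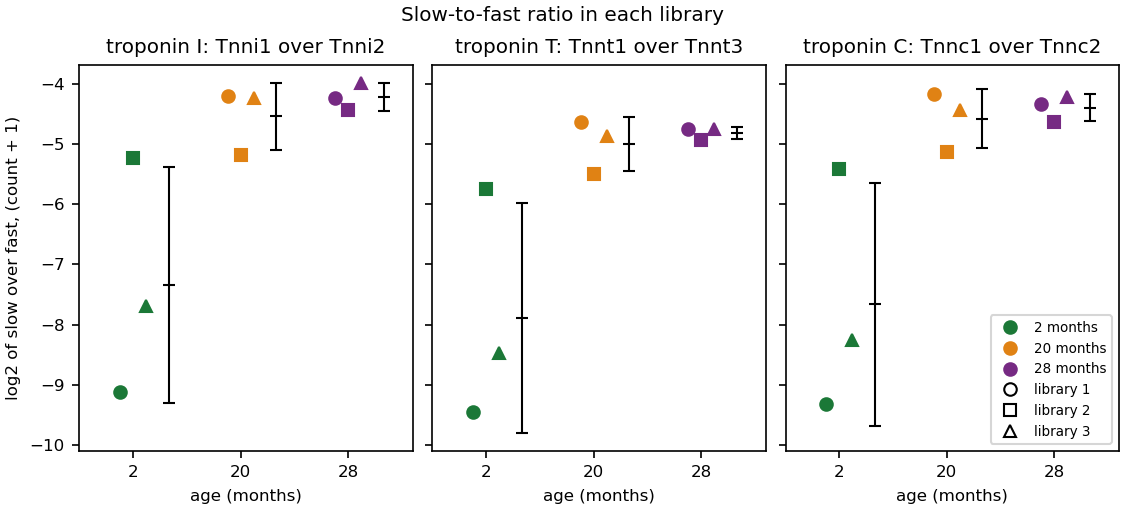
Log2 of the slow over the fast gene of each troponin subunit in each library, by age in months. Symbols are library numbers, and the black mark and bar are the mean and SD of 3 libraries. In all 3 panels 2-month library 2 lies near 20-month library 2, and the 28-month libraries lie closest together.

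The mean log2 ratio rose by 2.96 (SE 1.15) for troponin I, by 2.98 (SE 1.11) for troponin T and by 3.17 (SE 1.18) for troponin C between 2 months and the older ages. Each of these differences had p = 0.0119 in a two-sided exact permutation test of 3 against 6 libraries, the smallest p that the 84 assignments can give. Adjusted over the 12 ratio tests that were run, p was 0.0476, a value that rests on all 3 ratios reaching the smallest p together. The 3 ratios moved together in the same libraries and are not independent results. The 20- and 28-month libraries taken singly against 2 months cannot go below p = 0.1 with 3 against 3 in this exact test, and each comparison reached that value. Without 2-month library 2 the rises were 4.02, 4.05 and 4.30, and without library 1 they were 2.08, 2.21 and 2.35 (exact p = 0.0357 for each, the smallest that 2 against 6 allows). Between 20 and 28 months the log2 ratio differed by 0.32 (I), 0.18 (T) and 0.18 (C), with exact p of 0.5, 0.8 and 0.7. Corrected for transcript length, slow troponin was 0.120 to 1.74% of the slow and fast sum for troponin I at 2 months and 1.80 to 4.04% later. For troponin T the shares were 0.150 to 1.90% and 2.27 to 4.02%, and for troponin C 0.150 to 2.21% and 2.67 to 5.06%. Slow troponin never exceeded 5.06% of a subunit on this scale.

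The 3 slow genes kept nearly fixed proportions while their level moved. Tnni1 ran over a 26.9-fold range between libraries, Tnnt1 over a 23.8-fold range and Tnnc1 over a 24.7-fold range. Across the same 9 libraries the ratio of Tnnt1 to Tnni1 stayed between 1.57 and 2.13, that of Tnnc1 to Tnni1 between 1.01 and 1.41 and that of Tnnt1 to Tnnc1 between 1.31 and 1.62. None of these 3 ratios passed a test between 2 months and the older ages (exact permutation p of 0.679, 0.524 and 0.583). Among the fast genes, Tnnt3 over Tnni2 ran from 2.54 to 2.81 at 2 months and from 2.40 to 2.68 later (exact p = 0.238). Tnnc2 over Tnni2 ran from 1.49 to 1.62 at 2 months and from 1.21 to 1.35 in the 6 older libraries, with no overlap (exact p = 0.0119, the smallest possible, adjusted p = 0.0714 over 6 ratios). Tnnt3 over Tnnc2 was 1.65 to 1.88 at 2 months and 1.79 to 2.19 later (exact p = 0.0238, adjusted p = 0.0714). Both ratios that involve Tnnc2 missed the threshold after adjustment. Leaving out 2-month libraries 1 and 2, the single young ratio of Tnnc2 to Tnni2 was 1.49, above the 6 older ones, and that of Tnnt3 to Tnnc2 was 1.88, among them (exact p = 0.143, the smallest possible, and 0.571).

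Genes whose pattern over the 9 libraries was most like that of the troponins were found by the root-mean-square difference of centred log2 values. For the mean of the 3 slow genes the nearest were Tpm3, the slow tropomyosin (0.225), Myh7, the slow myosin heavy chain (0.273), and Myl3, a slow myosin light chain (0.341). The 3 slow members themselves differed from their mean by at most 0.098, and the median gene tested by 1.60. For the mean of the fast genes, whose own root-mean-square movement was 0.189, the nearest were Park7 (0.04997), Wnt4 (0.0538) and Vps36 (0.0569). The 3 fast members differed from their mean by at most 0.0940. Nearest to Tnnt2 were Fam105b (0.189), Lrrc48 (0.189) and Ier3 (0.207). Nearest to Tnni3 were Abcc3 (0.758), Tube1 (0.801) and Ddc (0.840). The Tnni3 profile itself moved by 1.34, and the median gene differed from it by 1.36. It rests on 0 to 10 reads per library, so these matches may be counting noise.

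**Figure D3:**
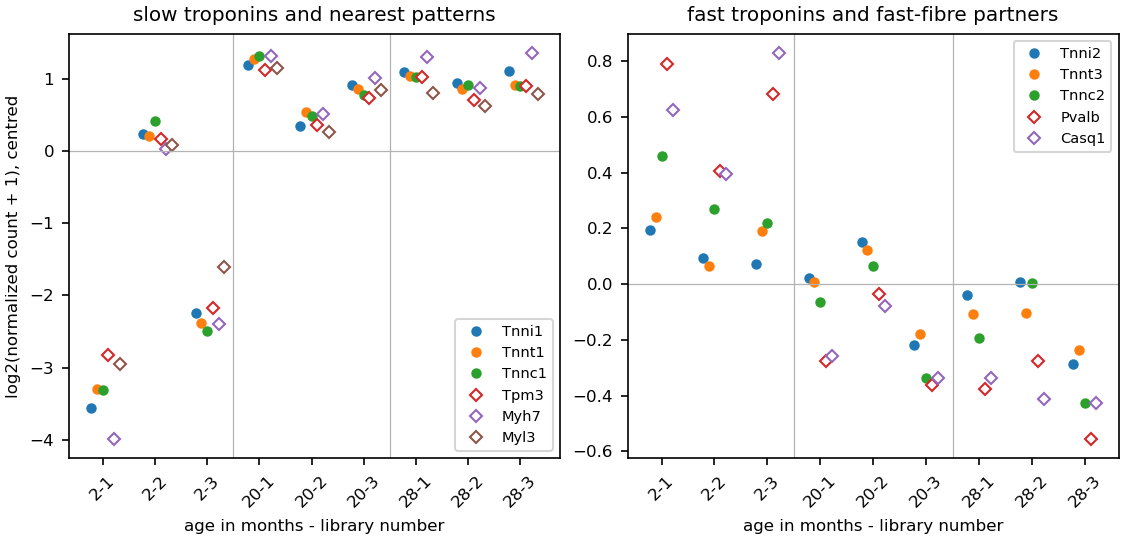
Log2(normalized count + 1), centred on each gene's mean over the 9 libraries, by library (age in months and library number). The left panel shows the 3 slow troponins with the genes of nearest pattern, Tpm3, Myh7 and Myl3. The right panel shows the 3 fast troponins with Pvalb and Casq1, on a narrower scale. In the left panel all 6 genes are lowest in 2-month libraries 1 and 3 and intermediate in 2-month library 2.

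Partners of troponin on the thin filament moved in part. The list held 15 genes, all tested, and 6 were called higher and 3 lower at 20 against 2 months, 5 and 1 at 28 against 2 months and none at 28 against 20 months. Of all genes tested, 9.42% were called higher and 7.13% lower at 20 against 2 months, and 7.53% and 6.24% at 28 against 2 months. The list's median log2 change at 20 against 2 months was 0.23. Tpm3 had 1703, 13521 and 2653 normalized counts at 2 months and 15417 to 26088 later, and rose by 2.35 (adjusted p = 0.0106) and 2.49 (adjusted p = 0.00882) on the log2 scale at 20 and 28 against 2 months. Tpm2, the beta tropomyosin, fell by 0.52 at 20 months (adjusted p = 0.0473) and had a log2 change of -0.35 at 28 months, which did not pass. Tpm1, the alpha tropomyosin of fast fibres, had log2 changes of -0.07 and -0.35, and skeletal actin, Acta1, -0.28 and -0.27, none of which passed. Cardiac actin, Actc1, which young skeletal muscle also makes, fell from 35874, 11648 and 59450 normalized counts to 1625 to 1944 at 20 months and 4533 to 5315 at 28 months. Its log2 changes were -4.03 (adjusted p = 5.28e-05) and -2.56 (adjusted p = 0.00125). Leiomodin 2, Lmod2, which promotes growth of actin filaments, rose by 1.48 (adjusted p = 0.00141) and 1.29 (adjusted p = 0.00379), and nebulin, Neb, the ruler of the thin filament, by 0.76 at 20 months (adjusted p = 0.0323). The sizes depended on single young libraries. Tpm3 had log2 changes of 1.74 and 1.88 without 2-month library 1 and 3.24 and 3.38 without library 2, and its 20-month call was lost without 20-month library 1 (adjusted p = 0.0521). Actc1 had -4.69 and -3.22 without 2-month library 2. Leaving out both young libraries gave 2.92 and 3.06 for Tpm3, -5.06 and -3.58 for Actc1 and 1.80 and 1.60 for Lmod2, all called. Neb then had 1.03 at 20 months, a larger change than in the full fit, but was not called (adjusted p = 0.0727), and Tpm2 had -0.35 (adjusted p = 0.326). The 20-month call of Neb was also lost without 2-month library 1 or 3 or 20-month library 1 or 2, and that of Tpm2 in 7 of 9 fits without 1 library, all but those without 2-month library 3 or 28-month library 2. With no filter on low values 2 and 1 of the list were called. Without 2-month library 1, which held the most marrow, blood and adipocyte RNA, 6 of the 15 genes were called at 20 against 2 months, and without 20-month library 1, 4 were.

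Slow-fibre partners went the way of the slow troponins. Of 12 tested, 7 were called higher at 20 against 2 months and 8 at 28 against 2 months, with none lower, against 9.42% and 7.53% of all genes called higher. Their median log2 change was 1.20 and 1.19. The myosin heavy chain of slow fibres, Myh7, had 2773, 44700 and 8400 normalized counts at 2 months, 62731 to 109827 at 20 months and 80566 to 112463 at 28 months. It rose by 3.06 (adjusted p = 0.00949) and 3.29 (adjusted p = 0.00723). The slow calcium pump Atp2a2 rose by 2.64 (adjusted p = 0.00118) and 2.57 (adjusted p = 0.00147), and the slow light chains Myl2 by 2.25 and 2.28 (adjusted p = 0.00399 and 0.00397) and Myl3 by 2.24 and 2.23 (adjusted p = 0.0119 and 0.0134). In 2-month library 2 the 12 genes stood at a median of 3.52 times the mean of the other 2-month libraries. With no filter on low values none of the 12 was called in either comparison. At 28 against 2 months DESeq2 called 4 of them and edgeR 5. When 2-month libraries 1 and 2 were both left out, Myh7 had log2 changes of 3.33 and 3.56. With 1 young library out its size moved further, to 2.13 and 2.36 without library 1 and 4.13 and 4.36 without library 2. Myl3 at 20 months went likewise to 1.51 or to 3.02. Without library 2, Atp2a2 had 3.27 and 3.20 and Myl2 2.89 and 2.92. The calls of Myl3 were lost without 20-month library 1 at 20 months (adjusted p = 0.0573) and without 28-month library 1 at 28 months (adjusted p = 0.0507). Without library 2 alone all 12 were called at 20 against 2 months. Without 20-month library 1, 3 were called at 20 against 2 months. In the 28-month comparison 4 were called without 2-month library 1, 5 without 2-month library 3, and 3, 5 and 4 without 28-month library 1, 2 or 3.

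Fast-fibre partners leaned the other way. Of 12 tested, 1 was called higher and 5 lower at 20 against 2 months, and 1 higher and 6 lower at 28 against 2 months. Of all genes, 7.13% and 6.24% were called lower and 9.42% and 7.53% higher, so the 1 higher call was near the background. The median log2 change was -0.14 and -0.43. Parvalbumin, Pvalb, the calcium buffer of fast fibres, fell by 0.85 (adjusted p = 0.00200) and 1.03 (adjusted p = 0.000560). Calsequestrin 1, Casq1, the calcium store protein of fast fibres, fell by 0.84 (adjusted p = 0.000676) and 1.01 (adjusted p = 0.000185), and the fast light chain Mylpf by 0.66 (adjusted p = 0.00664) and 0.46 (adjusted p = 0.0413). Myh2, the myosin of the fast oxidative type, was the gene that rose, by 0.80 (adjusted p = 0.0186) and 0.70 (adjusted p = 0.0386). Myh4, the myosin of the fastest type, had log2 changes of 0.00 and -0.29 that did not pass (adjusted p = 0.999 and 0.538). With no filter on low values 1 and 2 of the 12 were called. In the fit without 2-month libraries 1 and 2, Pvalb (log2 changes -0.90 and -1.08) and Casq1 (-1.05 and -1.22) were still called in both comparisons. Mylpf (-0.69 and -0.49) and Myh2 (0.75 and 0.65) had changes of about the same size as in the full fit but were called in neither (adjusted p from 0.0506 to 0.167). With 1 library out, the 28-month call of Mylpf was lost in 7 of 9 fits, all but those without 2-month library 2 or 20-month library 3. Myh2 lost its call at 20 months without 2-month library 1 or 20-month library 1 or 3, and at 28 months without 2-month library 1 or 3, 20-month library 1 or 28-month library 1 or 3. Without 20-month library 1, 3 of the 12 were called at 20 against 2 months. In the 28-month comparison 3 were called without 2-month library 1, 28-month library 1 or 28-month library 3, and 4 without 2-month library 3 or 20-month library 1. Tnni2 and Tnnt3 were among the fast-fibre genes with changes that did not pass in the limma fit, as were Myh4 and, on the thin filament, Tpm1.

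**Figure D4:**
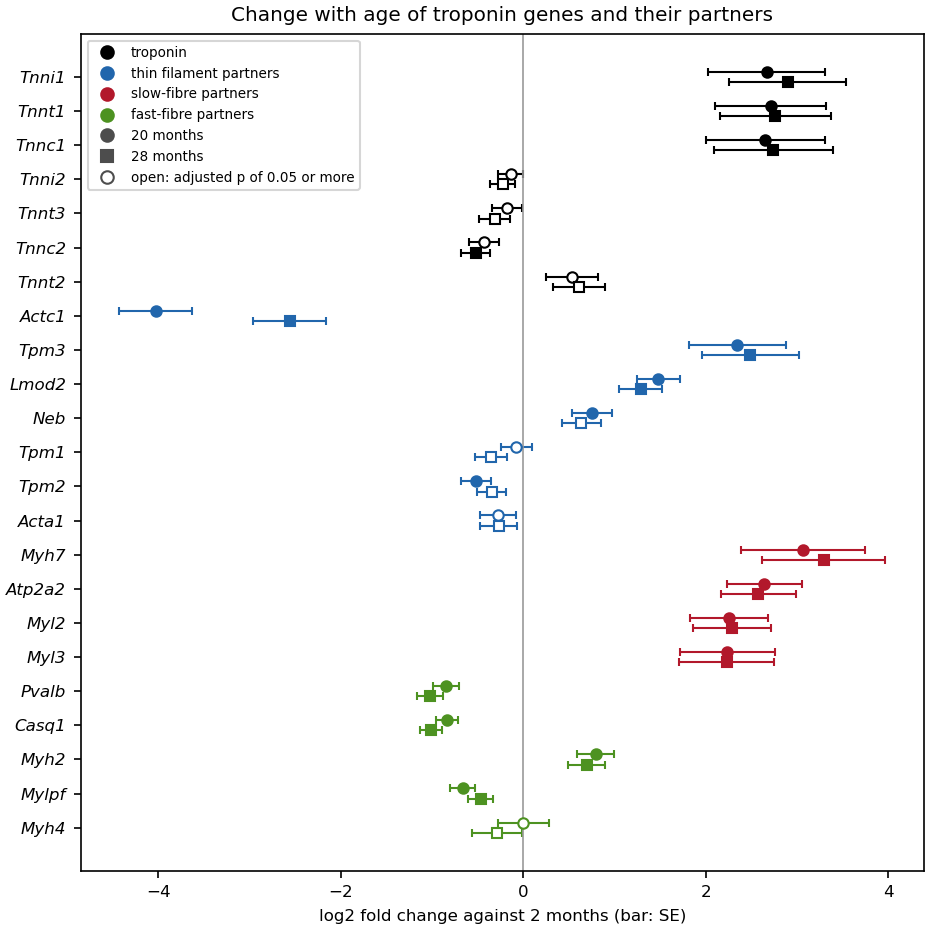
Log2 fold change against 2 months of the 7 troponin genes tested and of named partner genes, at 20 months (circles) and 28 months (squares), with SE bars. Filled symbols have an adjusted p under 0.05 (limma). Slow troponins, Tpm3 and the slow-fibre genes lie between 2.23 and 3.29, and fast troponins between -0.52 and -0.14.

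Of 11 developmental and cardiac sarcomere genes, 7 were tested, and 3 were called higher at 20 against 2 months and 5 at 28 against 2 months, against 9.42% and 7.53% of all genes. The embryonic myosin Myh3 rose by 1.89 (adjusted p = 5.52e-06) and 2.51 (adjusted p = 8.46e-07), from 407 to 427 normalized counts at 2 months to 1271 to 1756 and 2040 to 2614. The foetal acetylcholine receptor subunit Chrng rose by 2.82 and 3.11 (adjusted p = 0.0412 and 0.0304) but had at most 55.2 normalized counts. Myog, a factor of muscle differentiation and denervation, was higher at 28 than at 20 months (log2 change 1.26, adjusted p = 0.0473), and the cardiac myosin Myh6 was called at 28 months (0.93, adjusted p = 0.0484). Tnnt2 did not pass in the same comparisons. Myh3, with 2-month libraries 1 and 2 both out, was still called (log2 changes 1.86 and 2.48), and Chrng (2.61 and 2.90) and Myh6 (1.08 at 28 months) were not. Chrng had 1.94 and 2.23 without library 1 and 3.59 and 3.88 without library 2. Its 20-month call was kept with 1 library out only without 2-month library 2 or 28-month library 2, and its 28-month call was lost without 2-month library 1 or 3 or any 28-month library. The call of Myh6 was lost without those same 5 libraries or 20-month library 1. With no filter on low values 1 of the list was called in each comparison. Without 20-month library 1 or 3 only 1 of these genes was called at 20 against 2 months. In the 28-month comparison 2 were called without 2-month library 1, 28-month library 1 or 28-month library 2, and 3 without 2-month library 3 or 28-month library 3. The call of Myog at 28 against 20 months was lost without any 1 of 5 libraries (2-month library 1, 20-month libraries 1 and 3, 28-month libraries 1 and 2). Among 22 regulators of fibre type, 8 were called higher and 1 lower at 20 against 2 months and 7 and 2 at 28 against 2 months, with median log2 changes of 0.28 and 0.08. The shares over all genes were 9.42% higher and 7.13% lower, and 7.53% and 6.24%, so the 1 and 2 lower calls were near the background. Without 20-month library 1 or 2, 5 were called at 20 against 2 months. Prox1, a homeobox factor of slow fibres, rose by 1.61 (adjusted p = 0.0486) and 1.94 (adjusted p = 0.0245). Its counts were 17.8, 109 and 60.6 at 2 months, so it too was highest in library 2 of the young group. Esrrg, an oestrogen-related receptor of oxidative fibres, rose by 1.16 (adjusted p = 0.00184) and 1.20 (adjusted p = 0.00156). The calcineurin target Nfatc2 rose by 0.92 (adjusted p = 0.00351) and 0.81 (adjusted p = 0.00825). Tead4, a factor that binds M-CAT sites, rose by 0.85 in both comparisons (adjusted p = 0.0198 and 0.0223). With 2-month libraries 1 and 2 both out, Esrrg, Nfatc2 and Tead4 were called in both comparisons and Prox1 at 28 against 2 months alone. Without library 1 alone, Tead4 was called in neither (log2 change 0.76 in both, adjusted p = 0.0732 and 0.0840), nor was Prox1 (0.90 and 1.23, adjusted p = 0.135 and 0.0584). Tead4 also lost both calls without 2-month library 3, that at 20 months without 20-month library 1 or 2, and that at 28 months without 28-month library 2 or 3. Prox1 kept its 20-month call with 1 library out only without 2-month library 2, and lost its 28-month call also without 28-month library 1 or 3. Esrrg and Nfatc2 kept both calls in the 9 fits without 1 library. Of all 22 regulators, 7 and 8 were called with 2-month libraries 1 and 2 both out, and 1 and 3 with no filter on low values.

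Captured methylated DNA at the troponin genes was read in 500-bp bins from 1 pool per age and tissue, with no replicate and so with no test. The labels list a repeated muscle capture as well, and the muscle columns name only tissue and age, so which capture they hold is not known here. Values are mean normalized counts over the 4 bins nearest to the gene's start. The start of Tnnt3, the most expressed member per kb, was the least captured of the 8 in both tissues. Its window had 0.910, 1.05 and 4.14 at 2, 20 and 28 months in muscle and 1.78, 1.83 and 2.97 in T cells. Only 4, 5 and 26 reads lay behind the muscle values, with 95% Poisson intervals of 0.248 to 2.33, 0.342 to 2.46 and 2.71 to 6.07. The median over 21520 protein-coding gene starts was 7.28, 7.37 and 10.04 in muscle. The start of Tnni3, which was nearly silent in this muscle, was the most captured, with 43.9, 38.7 and 31.1 in muscle and 62.2, 75.4 and 74.3 in T cells. Its window also held the most CpGs of the 8, 45, against 13 at Tnnt3.

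The next most captured start was that of Tnnc2, one of the most expressed members. It had 31.6, 24.8 and 19.0 at its start in muscle and 52.5, 55.4 and 69.4 in T cells. Over its gene body the muscle values were 62.0, 41.8 and 31.1, and those of T cells 101, 137 and 165. The median gene body had 22.3, 20.6 and 18.9 in muscle and 23.8, 26.8 and 28.9 in T cells. Muscle DNA at Tnnc2 thus had lower values at each later age, while the T-cell pools had higher ones. The paper reported a loss with age for the most methylated muscle regions as a class, so this fall is not shown to be particular to Tnnc2. The start of the nearly silent Tnni3 fell too, from 43.9 to 31.1 in muscle. A link of these values to RNA was not tested. With each pool rescaled to the same sum, the body of Tnnc2 still had 85.7, 62.3 and 58.5 in muscle and 85.9, 95.5 and 112 in T cells. At the starts of the slow genes, whose RNA rose, only Tnnc1 had a muscle value at 28 months whose interval (9.12 to 14.6) lay apart from that at 2 months (3.32 to 7.85). Of all starts, 64.2% had higher muscle values at 28 months as deposited, and 80.2% with each pool rescaled to the same sum. Tnni1 had 13.6, 10.5 and 15.3, Tnnt1 8.64, 8.63 and 9.08 and Tnnc1 5.23, 8.0 and 11.6. The intervals overlapped at all ages for Tnni1 (10.4 to 17.6, 7.81 to 13.9 and 12.4 to 18.7) and Tnnt1 (6.12 to 11.9, 6.19 to 11.7 and 6.88 to 11.8). Overlap of intervals is not a test, so a change there was neither shown nor excluded. The 3 gene bodies had lower values at 28 than at 2 months, from 37.9 to 26.0 (Tnni1), 27.5 to 20.2 (Tnnt1) and 33.7 to 20.5 (Tnnc1). The same held for Tnni2 (21.7 to 15.2), Tnni3 (34.7 to 25.4) and Tnnt2 (26.8 to 23.0), whereas Tnnt3 had 10.9 and 11.5. These directions depended on the scaling. Of all 21490 gene bodies, 67.6% had a lower muscle value at 28 than at 2 months as deposited and 31.6% after rescaling. After rescaling to the same sum, the muscle bodies had 52.3 and 49.0 for Tnni1, 46.5 and 38.5 for Tnnc1 and 36.9 and 43.2 for Tnnt2 at 2 and 28 months. Tnni2 had 29.9 and 28.5, and Tnnt3 15.0 and 21.7. The log2 ratio of 28 over 2 months was -0.00155 for Tnnt1 and -0.00363 for Tnni3. The starts of Tnni2 and Tnnt2 had 10.7, 7.58 and 14.5 and 7.96, 10.7 and 12.4.

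**Figure D5:**
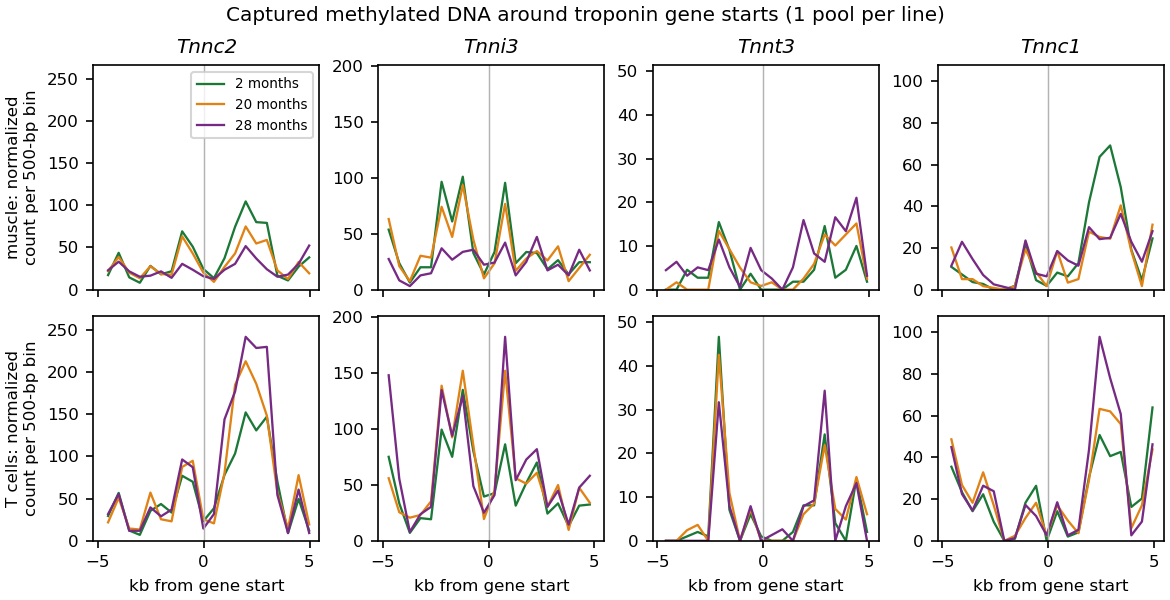
Captured methylated DNA (normalized count per 500-bp bin) against distance from the gene's start in kb, in muscle (top) and T cells (bottom), for Tnnc2, Tnni3, Tnnt3 and Tnnc1. Each line is 1 pool of 3 mice, coloured by age, and each gene has its own vertical scale from 0. Over the body of Tnnc2 the muscle pools decline from 62.0 to 31.1 while the T-cell pools climb from 101 to 165.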

How the data were processed

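Normalized counts of 9 muscle RNA-seq libraries (3 mice at each of 3 ages) were read for the 8 troponin genes. The deposited signal values were made by the authors, who trimmed reads with Trim Galore, aligned them to mm10 with Hisat2, counted reads inside refSeq exons with htseq-count and divided by DESeq2 size factors; the submitters' tool list names TopHat. Captured DNA was aligned with Bowtie2 and counted by the authors per 500-bp bin, as deposited signal values scaled in the same way. All values were whole multiples of 1 step per library (tolerance 0.01 read), so reads were recovered. The 5 rows that name no gene held 37.9 to 47.7% of counts and were left out.

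limma 3.58.1 (R 4.3.3) was fitted on log2(normalized count + 1) over the 13178 genes with a mean of at least 10, with age as the only term and Benjamini-Hochberg adjustment over all of them. A log2 change on this scale understates that of low genes. edgeR 4.0.16 and DESeq2 1.42.0 were run on the recovered reads. Slow-to-fast log2 ratios were compared by two-sided exact permutation. The script was tested on simulated data.

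The members and gene lists were chosen with earlier results of these data known. Named were all members, at most 4 genes of each list by size of change among those called in a comparison of 2 ages, Tpm1, Tpm2, Tpm3, Acta1, Myh7 and Myh4, and the 3 nearest patterns. Libraries of a group came from separate mice. The labels list a repeated muscle capture per age, and the columns name only tissue and age, so no capture was assigned. Alternatives and their effect are in the closing section; leaving out 2-month libraries 1 and 2 together, and refitting the named list genes and the ratios within slow and fast genes with libraries left out, were chosen after seeing the data.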

Additional observations from a re-analysis of the deposited data

Results flagged for a closer look

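The age differences of captured DNA over the gene bodies ran in opposite directions in muscle and T cells for 6 of the 8 troponin genes: both older muscle pools were below the 2-month pool and both older T-cell pools above it. The same held for 51.9% of all 21490 gene bodies as deposited, and the median body ran the same way (22.3, 20.6 and 18.9 in muscle and 23.8, 26.8 and 28.9 in T cells at 2, 20 and 28 months). The log2 ratio of 28 over 2 months in muscle minus that in T cells was -1.71 for Tnnc2, -1.51 for Tnnc1, -1.11 for Tnnt1, -1.01 for Tnni3, -0.80 for Tnni1 and -0.40 for Tnnt2. Each age and tissue is 1 pool, and the difference was not tested. With each pool rescaled to the same sum, 4 of the 8 genes (Tnni3, Tnnt1, Tnnc1 and Tnnc2) had these directions, against 8.69% of all gene bodies, with muscle log2 ratios of 28 over 2 months of only -0.00363 for Tnni3 and -0.00155 for Tnnt1, and the difference was -0.94 for Tnnc2 and -0.74 for Tnnc1.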

How the results depend on the processing

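Intervals and limits cover counting error only, and each captured pool is 1 library. The slow troponins kept positive log2 changes against 2 months under all alternatives. Counts below are for 20 against 2, 28 against 2 and 28 against 20 months. Reported calls were 3, 4 and 0 troponins (4 for both older ages), 9, 6 and 0 thin filament genes, 7, 8 and 0 slow-fibre genes, 6, 7 and 0 fast-fibre genes, 3, 5 and 1 developmental genes and 9, 9 and 0 regulators. With no filter on low values, calls against 2 months were 0 and 0 troponins (0 for both older ages), 2 and 1 thin filament, 0 and 0 slow-fibre, 1 and 2 fast-fibre, 1 and 1 developmental (0 at 28 against 20) and 1 and 3 regulator genes, over more genes tested. With the same sum, they were 4 and 3 thin filament, 2 and 2 fast-fibre and 5 and 5 regulator genes. With only the groups compared, 1 troponin (20 against 2), 4 fast-fibre and 3 developmental genes (28 against 2) were called. DESeq2 called 1 and 2 troponins and 4 slow-fibre genes (28 against 2), and edgeR 1 troponin and 5 slow-fibre genes (28 against 2). A pseudocount of 0.1 gave 2 and 3 developmental genes against 2 months. At 28 against 20 months 1 thin filament gene was called with the same sum, quantile normalization, the replicate block, the term for libraries numbered 3, only the groups compared and DESeq2, and 1 fast-fibre gene with the last 4 of these. Developmental calls there were 0 with a pseudocount of 0.1, a mean of at least 50 and quantile normalization, and 2 with the block, the term and DESeq2. With 2-month libraries 1 and 2 both out, chosen after seeing the data, calls were 5 thin filament and 11 slow-fibre genes (20 against 2), 3 and 3 fast-fibre and 1 and 2 developmental genes. The ratios then rose by 3.30 (I), 3.57 (T) and 3.77 (C) with exact p = 0.143, the smallest that 1 against 6 allows. Ratios within the slow genes, none of which passed a test, changed sign: Tnnt1 to Tnni1 was 0.12 with both out (-0.0722 to 0.0645 without either), Tnnc1 to Tnni1 0.22 (0.00788 without library 1) and Tnnt1 to Tnnc1 -0.0953 (-0.0462 to 0.0566), as log2 differences from 2 months. The cause of these moves was not tested.

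Leaving out 1 library gave 1 to 3, 2 to 4 and 0 troponins (3 to 4 for both older ages), 4 to 9, 5 to 7 and 0 to 1 thin filament, 3 to 12, 3 to 11 and 0 slow-fibre, 3 to 6, 3 to 8 and 0 to 1 fast-fibre, 1 to 3, 2 to 5 and 0 to 1 developmental and 5 to 12, 6 to 11 and 0 regulator genes. The 28 against 20 month log2 changes changed sign, from -0.00661 to 0.421 (Tnni1), -0.191 to 0.000678 (Tnni2), -0.126 to 0.243 (Tnnt1), -0.0975 to 0.351 (Tnnt2), -0.0991 to 0.316 (Tnnc1) and -0.206 to 0.0176 (Tnnc2), as did the ratios, from -0.000531 to 0.492 (I), -0.0628 to 0.364 (T) and -0.0942 to 0.385 (C). Quantile normalization gave -0.026 for Tnnt2 and 0.023 for Tnnc2. The ratio rises from 2 months were 2.08 to 4.02, 2.21 to 4.05 and 2.35 to 4.30.

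Calls over all genes were 2181, 1814 and 50, against 969, 837 and 17 with no filter, 586, 554 and 24 with the same sum, 228 (28 against 20) with DESeq2, 76 with only the groups compared and 103 with the term, and 1095 and 885 with both young libraries out. The labels do not say what the shared replicate numbers mean, and small correlations cannot show that they carry no pairing. Libraries numbered 3 deviated together in all comparisons (Pearson r over genes of 0.109, 0.15 and 0.161), and the others had r of at most 0.1. Those numbered 3 also had lower shares of counts without a gene (37.9 to 41.5% against 44.0 to 47.7%). The cause was not tested. With the replicate block, 3000, 2529 and 138 genes were called, among them 4, 4 and 0 troponins, 10 and 10 thin filament genes and 14 and 12 regulators against 2 months. The ratio rises of 2.96, 2.98 and 3.17 had exact permutation p = 0.037 within replicate numbers, the smallest possible. Captured DNA at gene starts moved beyond its counting interval in 33 of 48 values with the same sum, 20 with bins within 2 kb and 12 with the median over bins.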
